A study of Homo sapiens with 5 samples.

Results

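The regions described here are the methylated DNA peaks of 5 stretches of human chromosome 19 that hold clusters of Krüppel-associated box (KRAB) zinc finger genes. A peak was a member if it lay on chromosome 19 of the build hg19 and began between 9.2 and 13 Mb (segment 1), 19.7 and 24.5 Mb (segment 2), 35 and 38.5 Mb (segment 3), 44.3 and 45 Mb (segment 4) or 52 and 59.1 Mb (segment 5). The choice used positions only. It gave 389 of the 23350 peaks in all lists, and 601 further peaks of chromosome 19 served as the comparison. Overlap of 1 bp or more between peaks of different libraries joined them into a region, which gave 175 member regions of 11260 in all and 292 on the rest of the chromosome.

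The peaks came from methylated DNA immunoprecipitation with sequencing (MeDIP-seq), in which methylated fragments are pulled down and sequenced, in K562, an established human line from a chronic myeloid leukaemia. The 2 wild-type libraries were a bulk culture (WT bulk) and a transfected one (WT transfected). The 3 mutated libraries (MT1, MT2 and MT4) came from K562 lines with DNMT3A mutations, which the study induced with CRISPR/Cas9 gene editing. DNMT3A is an enzyme that places new methyl groups on DNA. The labels call the lines clones and do not give the mutation of each line, what the transfected control received, or whether the lines arose separately. All 5 were grown in the same medium.

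KRAB zinc finger proteins bind DNA through tandem zinc fingers and recruit the co-repressor TRIM28, which brings in enzymes that methylate histone H3 and compact the chromatin. Many of them bind and silence transposable elements. The family grew by repeated local duplication, so that its genes lie side by side and resemble each other in sequence. The zinc finger exons of many of these genes are known to carry repressive chromatin themselves. In the RefSeq gene table (GRCh38.p14), 266 of 567 protein-coding genes with a name beginning with ZNF, ZFP, ZSCAN, ZIM, ZIK or PEG3 (46.9%) are on chromosome 19. These prefixes also take in zinc finger genes without a KRAB box. They make up 18.3% of the 1451 coding genes of the chromosome, and 242 of the 266 sit in 28 unbroken runs of 2 or more neighbours. The longest run has 27 genes, from ZNF737 to ZNF681. That table is on another build, so no peak was assigned to a gene, and no sequence of a peak was read. The segments are broad and also contain genes of other families. Zinc finger genes outside the segments were not counted, so the rest of the chromosome may hold some too.

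The lists held 6213 peaks for WT bulk, 4470 for WT transfected, 2842 for MT1, 1426 for MT2 and 8399 for MT4. A peak is present in a list only if it reached the lowest score kept, 90. Read totals are unknown, so a missing peak is a site below that score and cannot be called unmethylated.

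The first question was whether the zinc finger segments were richer in peaks than the rest of their chromosome. WT bulk had 105 member peaks and 5.28 per Mb, against 4.16 per Mb on the other 39.2 Mb. WT transfected had 86 member peaks, with 4.32 against 3.67 per Mb. MT1 had 43, and was the only library with fewer peaks per Mb inside than outside (2.16 against 2.32). MT2 had 23, with 1.16 against 0.637 per Mb, and MT4 had 132, with 6.63 against 4.54 per Mb. The ratio of the densities was 1.27, 1.18, 0.931, 1.81 and 1.46 in that order of libraries. Its mean on the log2 scale was 0.38 ± 0.36 (SD, n = 5), a ratio of 1.30, which the spread between libraries did not separate from no difference (exact sign-flip permutation test, two-sided, p = 0.125, adjusted p = 0.208). The test takes both values from the same library, and with 5 libraries cannot give a p below 0.0625. The p-values were adjusted by Benjamini-Hochberg over the 5 measures compared in this way.

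The segments differed from one another. Segment 3 had more peaks per Mb than the rest of the chromosome in all 5 libraries: 7.43 for WT bulk, 6.86 for WT transfected, 3.71 for MT1, 2.86 for MT2 and 10.0 for MT4. These were 1.79, 1.87, 1.60, 4.48 and 2.20 times the density outside the segments. Segment 2, the one nearest the centromere, had fewer in all 5, from 0.327 times in MT2 to 0.501 times in WT bulk. Of the 15 regions of segment 2, 11 lay between 21 and 22 Mb. A stretch of 4.07 Mb without a peak in any list ran from 24224850 to 28295738, across the end of this segment. Most of the stretch lay beyond the segment and counted as length outside the segments, which lowered the outside density. With the stretch taken off the length, the mean density ratio of all segments together was 1.19 (exact sign-flip permutation p = 0.25). Segment 5, the longest, had 1.59 times the outside density for WT bulk, 1.46 for WT transfected, 1.99 for MT2 and 1.71 for MT4, and 0.971 for MT1. Segment 1 had ratios from 1.02 in MT1 to 1.74 in MT4. Segment 4, of 0.7 Mb, had 1 peak in each wild-type library, 3 in MT4 and none in MT1 or MT2. Without segment 2 the mean density ratio was 1.57, with all 5 libraries above 1 (exact p = 0.0625). Without segment 3 it was 1.09.

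**Figure D1:**
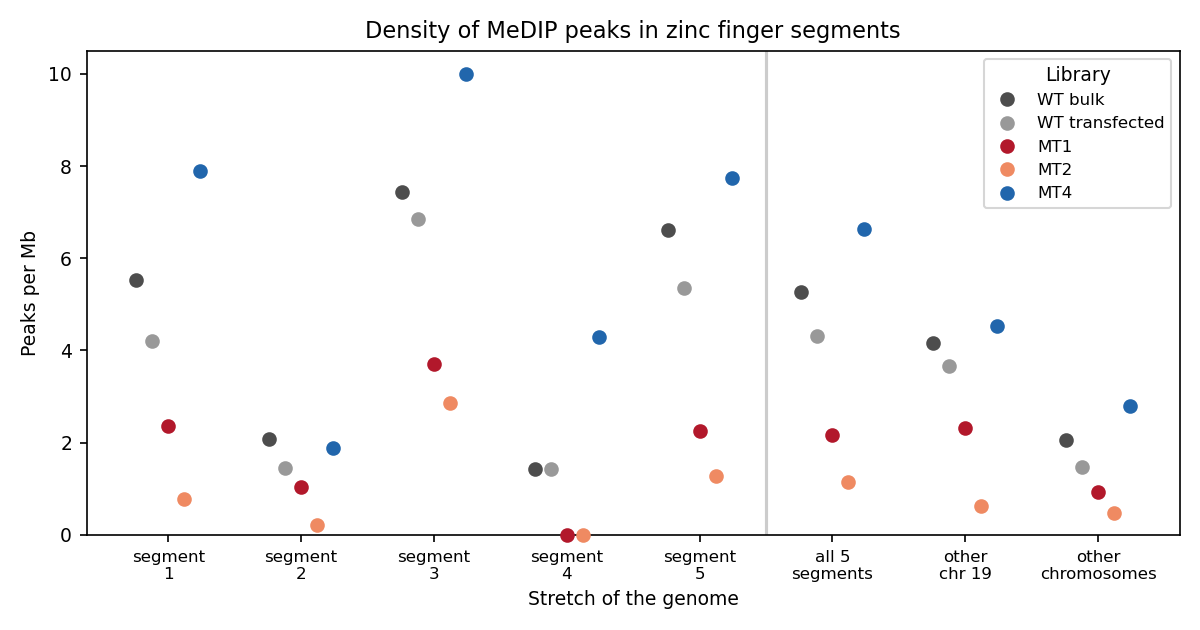
Peaks per Mb (vertical axis) in each of the 5 zinc finger segments, in all segments together, on the rest of chromosome 19 and on the other chromosomes, 1 point per library. Segment 3 stands above the rest of chromosome 19 in all 5 libraries, with 10.0 peaks per Mb in MT4, and segment 2 stands below it.

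Both parts of chromosome 19 had more peaks per Mb than chromosomes 1 to 22 and X without 19, which had 2.06 for WT bulk, 1.47 for WT transfected, 0.938 for MT1, 0.478 for MT2 and 2.80 for MT4. The mean log2 ratio of the segments to the other chromosomes was 1.33, a ratio of 2.51 (exact sign-flip permutation p = 0.0625, the smallest possible).

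The second question was whether member peaks differed in width. Their median width was 1274 bp for WT bulk, 1171.5 bp for WT transfected, 1445 bp for MT1, 1566 bp for MT2 and 1213.5 bp for MT4. On the rest of chromosome 19 the medians were 1781, 1615.5, 1830, 2133 and 1698.5 bp in the same order. Member peaks were thus narrower in 5 of 5 libraries, with differences from -385 bp in MT1 to -567 bp in MT2. The mean difference was -478 ± 68.2 bp (SD, n = 5; exact sign-flip permutation p = 0.0625, the smallest possible; adjusted p = 0.156). The lower quartile of width was also smaller in the segments in every library, for example 1014 against 1318.5 bp in WT bulk. So was the upper quartile, at 1948 against 2428.5 bp. Regions of the segments were narrower whatever the number of libraries that held them. The median over regions was 1027 against 1676 bp for those in 1 library, and 1202 against 1928 bp for those in all 5.

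Set against the other chromosomes, the width of member peaks was not unusual. The medians there were 1248 bp for WT bulk, 1175 bp for WT transfected, 1321.5 bp for MT1, 1783 bp for MT2 and 1075.5 bp for MT4. The segments differed from these by 13.4 ± 142 bp on average (SD, n = 5; exact sign-flip permutation p = 0.875). The medians on chromosome 19 outside the segments exceeded those of the other chromosomes in all 5 libraries.

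**Figure D2:**
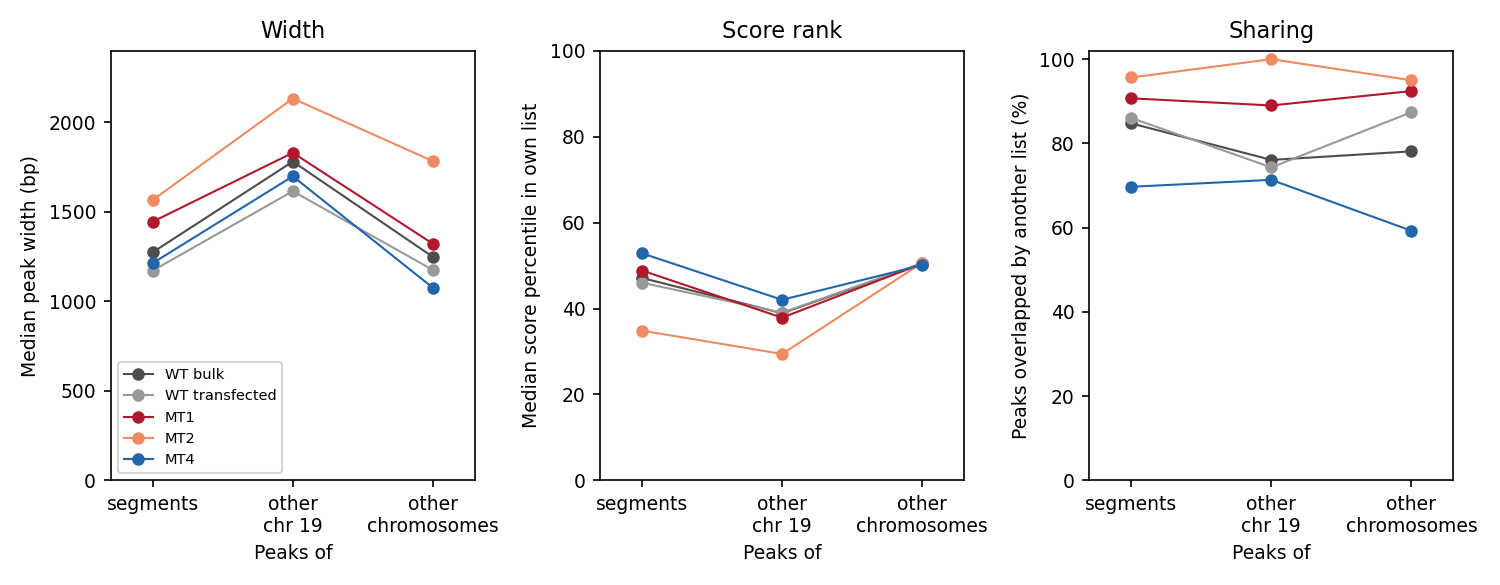
Median width in bp, median score percentile and percentage of peaks overlapped by another list (vertical axes), for peaks of the zinc finger segments, of the rest of chromosome 19 and of the other chromosomes; each line is 1 library. Peaks outside the segments on chromosome 19 are the widest and have the lowest median percentile in all 5 libraries, while sharing has no common direction.

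The third question was how member peaks ranked by the caller's score. The score is the authors' value for each peak, and its percentile was taken within the whole list of its library. The median percentile of member peaks was 47.1 for WT bulk, 46.0 for WT transfected, 48.8 for MT1, 34.9 for MT2 and 52.8 for MT4. Outside the segments it was 38.9, 39.0, 37.9, 29.4 and 42.0. Member peaks ranked higher in 5 of 5 libraries, by 8.48 ± 2.42 percentile points on average (SD, n = 5; exact sign-flip permutation p = 0.0625, the smallest possible; adjusted p = 0.156). Among the strongest peaks the order had no clear direction. At an equal length of 1426 top-scoring peaks per list, the mean difference was -5.28 points (exact p = 0.3125). Of WT bulk peaks, 1.90% of members and 7.98% of the others on the chromosome were in the top 10% of the list. These shares were 3.49% and 6.94% for WT transfected, 9.30% and 6.59% for MT1, 13% and 8.0% for MT2, and 6.06% and 7.30% for MT4. They rest on 2, 3, 4, 3 and 8 member peaks. Against the other chromosomes, where the medians lay between 50.1 and 50.6, the mean difference was -4.49 points (exact p = 0.1875).

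The fourth question was how far member peaks were shared. Another list overlapped 84.8% of member peaks in WT bulk (95% Wilson interval 76.7 to 90.4%), 86.0% in WT transfected (77.2 to 91.8%), 90.7% in MT1 (78.4 to 96.3%), 95.7% in MT2 (79.0 to 99.2%) and 69.7% in MT4 (61.4 to 76.9%). On the rest of chromosome 19 the shares were 76.1%, 74.3%, 89.0%, 100% and 71.3%. The intervals cover counting error only. Members were shared more often in 3 libraries and less often in MT2 and MT4, with a mean difference of 3.22 ± 6.82 points (SD, n = 5; exact sign-flip permutation p = 0.375, adjusted p = 0.375). Among peaks at or below the 50th percentile of their list, the share was 74.1% for members and 64.4% for the others in WT bulk, and 75.5% and 61.5% in WT transfected. In MT4 it was 51.6% and 57.6%.

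Of the 175 member regions, 73 (41.7%; 95% Wilson interval 34.7 to 49.1%) had a peak in 1 library only, where 49.9% of all regions of the genome did. A peak in 3 or more libraries was found in 63 (36.0%; 95% Wilson interval 29.3 to 43.3%), beside 31.3% of all regions. All 5 libraries held 14 (8.0%; 4.83 to 13%), beside 7.42% of all regions and 16 of 292 (5.48%) on the rest of the chromosome. The shares in 3 or more and in all 5 libraries lie near those of the whole genome. For 1 library only, the share of members was lower, and its interval ends just below the 49.9%. 40 member regions (22.9%) were in MT4 alone, where 30.1% of all regions were, and 21 (12%) in WT bulk and MT4 alone, where 9.02% were. MT4 has the longest list.

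**Figure D3:**
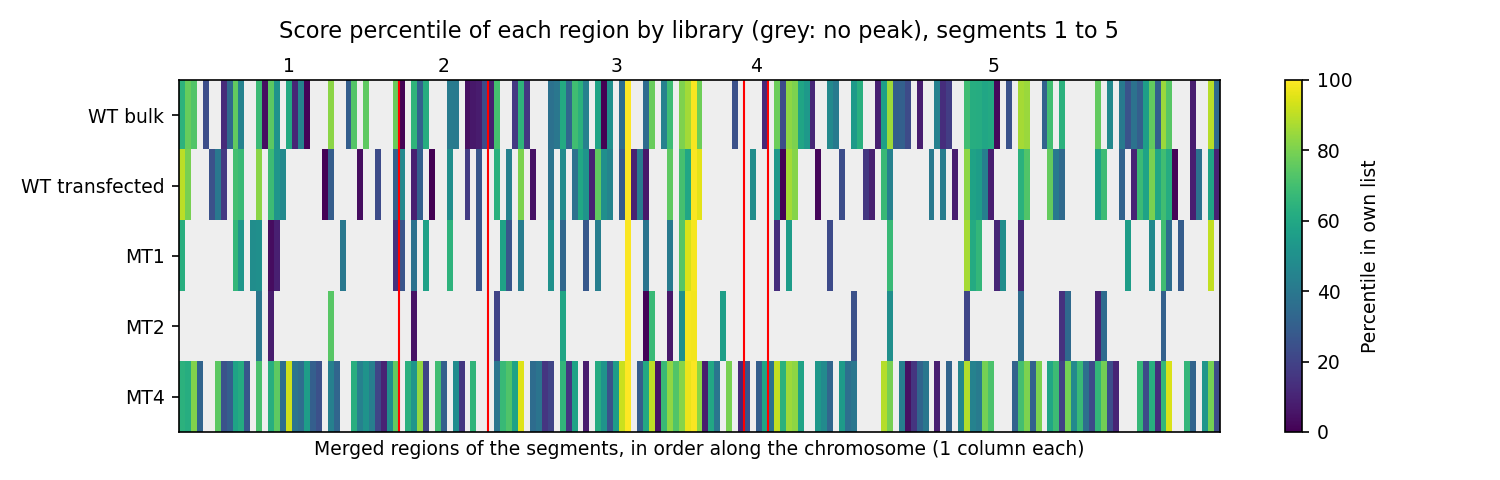
The 175 member regions in order along the chromosome (horizontal axis, segments 1 to 5 divided by red lines) in each library (rows), coloured by the percentile of the score in that library's list; grey marks no peak. Most columns are grey in MT2, and the brightest columns common to all rows are in segment 3.

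Recovery, the percentage of regions held by at least 2 of the other 4 libraries that a library also held, allowed for the different sets of regions. In the segments it was 82.4% for WT bulk (61 of 74), 67.0% for WT transfected (59 of 88), 36.4% for MT1 (36 of 99), 20.8% for MT2 (21 of 101) and 85.7% for MT4 (60 of 70). On the rest of the chromosome it was 71.0%, 60.7%, 47.5%, 14.5% and 73.4%. It was higher in the segments in 4 libraries and differed by -11.2 points in MT1 (mean difference 5.06 ± 9.48 points, SD, n = 5; exact sign-flip permutation p = 0.25, adjusted p = 0.3125). Without WT bulk the mean difference was -0.712 points and without WT transfected -0.500. Within the segments MT1 recovered 12 of 42 regions of segment 5 (28.6%) and 12 of 25 of segment 3 (48.0%). MT2 recovered 8 of 43 (18.6%) and 9 of 26 (34.6%) of the same segments.

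MT1 was examined further in regions that WT bulk, WT transfected and MT4 all held, a comparison made after its recovery was seen. It held 30 of the 54 such regions in the segments (55.6%; 95% Wilson interval 42.4 to 68.0%) and 50 of the 64 on the rest of chromosome 19 (78.1%; 66.6 to 86.5%). On the other chromosomes it held 61.2% of 2697. The share in the segments was thus near that elsewhere, and the rest of chromosome 19 had the higher one. MT2 held 33.3% in the segments, 31.3% on the rest of the chromosome and 36.5% elsewhere. Of the member regions, 20 (11.4%; 7.52 to 17.0%) were held by WT bulk, WT transfected and MT4 and by no other library, beside 7.97% of all regions and 10 of 292 (3.42%; 1.87 to 6.19%) outside the segments.

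**Figure D4:**
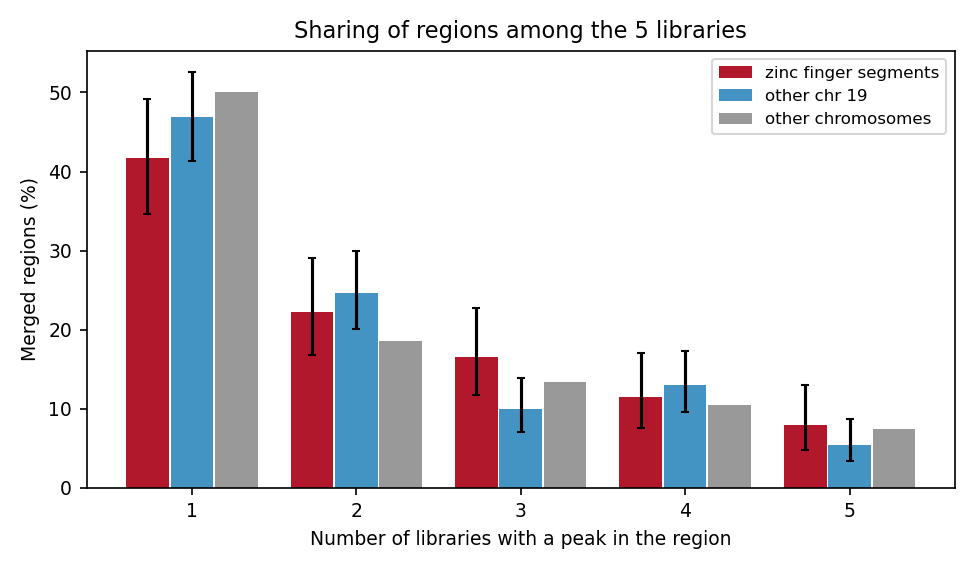
Percentage of merged regions (vertical axis) by the number of libraries with a peak in them (horizontal axis), for the zinc finger segments, the rest of chromosome 19 and the other chromosomes; lines on the bars are 95% Wilson intervals, drawn for both parts of chromosome 19. The interval of the 41.7% of member regions in 1 library, 34.7 to 49.1%, lies below the 50.1% of the other chromosomes. The member intervals for 2, 3, 4 and 5 libraries include the values of the other chromosomes.

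In base pairs, the overlap of a pair of lists divided by their union (the Jaccard index) was higher in the segments than on the rest of the chromosome in 9 of 10 pairs. It ran from 0.154 for WT bulk with MT2 to 0.488 for WT bulk with MT4 in the segments, and from 0.109 to 0.352 outside. The exception was MT1 with MT4, with 0.264 inside and 0.325 outside. The 10 pairs share libraries, so the count is a description. The wild-type pair had 0.474 in the segments, below WT bulk with MT4, and the 3 mutated pairs had 0.161 to 0.264.

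The strongest common region was in segment 3, at chr19:36799495-36800687. Its scores were 733 for WT bulk, 757 for WT transfected, 628 for MT1, 666 for MT2 and 638 for MT4, above the 99th percentile in every list, from 99.4 for MT2 to 99.8 for WT bulk. Its peaks measured between 851 and 1193 bp, in each library below the median width of member peaks. The second, at chr19:37784003-37785063, also in segment 3, scored 372, 416, 326, 297 and 418 in the same order. It lay between percentile 98.2 for MT2 and 99.4 for MT4. No other common member region reached a mean percentile of 90.

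Segment 3 held 7 of the 14 common regions, on 17.6% of the length of the segments and with 43 of the 175 member regions. It had from 24.8% (WT bulk) to 43.5% (MT2) of a library's member peaks. Segment 5 held 4, segment 1 held 2, segment 2 held 1 and segment 4 held none. A group of 4 of the 7 lay within 25.3 kb, between 37759759 and 37785063. This stretch was singled out after the values were seen. It contained 4 peaks for WT bulk, 5 for WT transfected, 4 for MT1, 4 for MT2 and 5 for MT4. The 4 MT2 peaks are among the 23 that MT2 had in all segments.

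The third common region by rank, at chr19:37771225-37773270, lies in this stretch. Its best score was 198 for WT bulk (percentile 86.2), 132 for WT transfected (59.1), 211 for MT1 (94.1), 395 for MT2 (98.5) and 293 for MT4 (97.1). All 3 mutated libraries ranked it above both wild-type libraries. No other common member region had this order, and a difference by genotype was not tested for single regions. In WT transfected the region was called as a pair of peaks of 505 and 705 bp, so its rank there is that of the better piece. MT2 called it as 1 peak of 2046 bp. The others of the stretch ranked lower in MT2 than in both wild-type libraries: percentile 6.56 at chr19:37759759-37760980, beside 69.1 and 75.2, and 50.1 at chr19:37764114-37764962, beside 80.8 and 70.4.

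**Figure D5:**
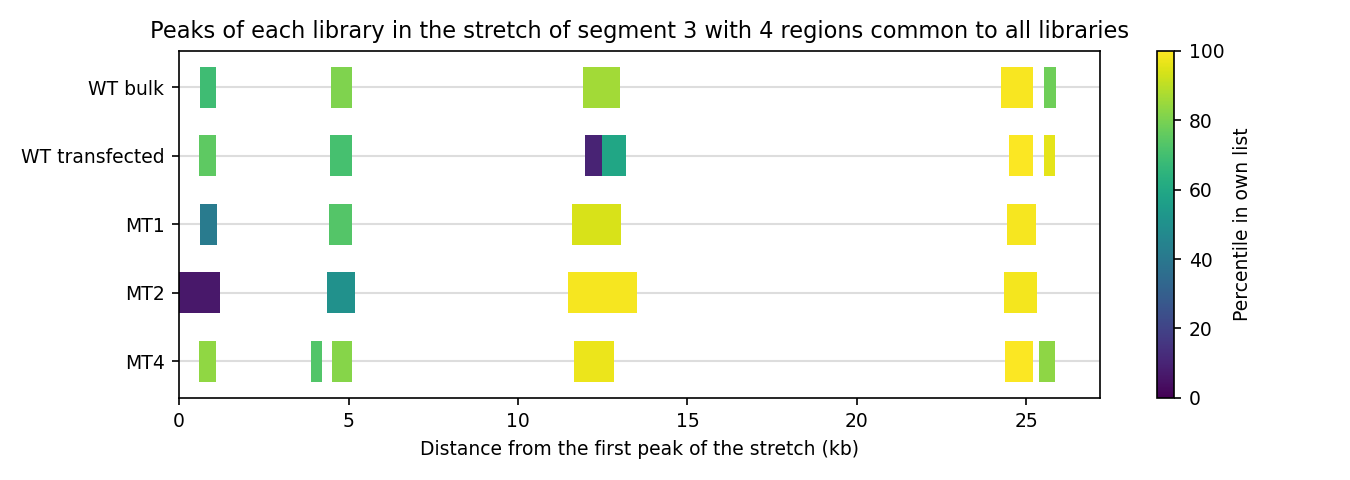
Peaks of each library (rows) in the stretch of segment 3 with 4 common regions, against the distance in kb from its first peak; colour is the percentile of the score in that library's list. All 5 libraries have peaks at the same 4 places, and the third is split into a pair of peaks in WT transfected and is 2046 bp wide in MT2, while the last peaks of WT bulk, WT transfected and MT4 lie just beyond the stretch.

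The other common regions with the highest ranks lay in segments 5, 1 and 3. At chr19:56088272-56091688 the peaks were wide, 2493 to 3213 bp, with percentiles from 21 in MT2 to 88.5 in MT4. At chr19:54056845-54058287 the mean percentile was 65.1, at chr19:58878068-58881453 it was 64.3, at chr19:10623922-10626793 it was 62.2 and at chr19:36181140-36183225 it was 53.5. Over the 14 common regions the median percentile was 77.7 for WT bulk, 69.1 for WT transfected, 58.5 for MT1, 37.4 for MT2 and 75.2 for MT4. MT2 had the widest peak in 9 of the 14, MT4 in 4 and MT1 in 1. The median width of the 14 was 1527 bp in MT2 and 1098.5 to 1297.5 bp in the other libraries.

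In segments other than 3 the highest mean percentile did not belong to a common region. It was 81.6 in segment 5, at chr19:52222245-52223283, which had peaks in WT bulk, WT transfected and MT4 with scores of 177, 174 and 187. It was 77.0 in segment 1, at chr19:9393859-9394990, with peaks in WT bulk (160) and MT4 (181). In segment 2 it was 69.4 and belonged to MT4 alone (chr19:21768733-21770344), and in segment 4 it was 48.9 and belonged to WT transfected alone (chr19:44324303-44325231). The strongest regions held by 1 library were at chr19:57078340-57079497 for MT4 (percentile 80.2), chr19:53635138-53636350 for WT bulk (63.1), chr19:37996655-37998668 for MT2 (55.9) and chr19:56189467-56192842 for MT1 (49.1). That of WT transfected was the region of segment 4 just given.

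The widest members in at least 3 libraries were headed by chr19:56124292-56129228 in segment 5, with peaks of 4937 bp in WT bulk, 4127 bp in WT transfected and 4049 bp in MT4. The next, chr19:10403455-10408174 in segment 1, measured 4720, 3739, 3382 and 4040 bp in WT bulk, WT transfected, MT1 and MT4. The third, chr19:19736796-19740361 in segment 2, had a median of 3285 bp and was at the score limit in WT bulk (90.4). Peaks of 3000 bp or more made up 5.71% of members in WT bulk and 14.1% of the other peaks of the chromosome. In WT transfected the shares were 4.65% and 6.25% and in MT4 5.30% and 11.2%. In MT1 (9.30% and 5.49%) and MT2 (13% and 12%) they were the other way round, on 4 and 3 member peaks.

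The last question was whether the mutated lines differed from the wild-type cultures in these segments. Members were 1.69% of the list in WT bulk (95% Wilson interval 1.40 to 2.04%) and 1.92% in WT transfected (1.56 to 2.37%). They were 1.51% in MT1 (1.13 to 2.03%), 1.61% in MT2 (1.08 to 2.41%) and 1.57% in MT4 (1.33 to 1.86%). All mutated values lay below both wild-type values, but their counting intervals overlapped. The means were 1.57 ± 0.0502% (SD, n = 3) and 1.81 ± 0.165% (SD, n = 2), a difference of -0.241 points (exact permutation test, two-sided, p = 0.2, the smallest that 2 against 3 libraries allow; adjusted p = 0.8 over 4 measures). With lists of 1426 peaks each it was 0.0351 points. Among 1 Mb windows of the genome with a peak, 9.80% have all mutated shares below both wild-type shares. These windows are much shorter than the segments together, so the 9.80% is only a rough guide. The share of a library's chromosome 19 peaks that fell in the segments was 39.2% for WT bulk, 37.4% for WT transfected, 32.1% for MT1, 47.9% for MT2 and 42.6% for MT4, so that the mutated lines lay on both sides of the wild type (exact permutation p = 0.8).

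The median width of member peaks was 1408 ± 179 bp (SD, n = 3) in mutated and 1223 ± 72.5 bp (SD, n = 2) in wild-type libraries (exact permutation p = 0.4, adjusted p = 0.8). The medians of MT1 and MT2 exceeded both wild-type medians, here and on the other chromosomes. That of MT4 did not exceed both in either. At equal list length the genotype difference in median width in the segments was 228 bp (exact permutation p = 0.2, the smallest possible). All mutated medians, that of MT4 included, then lay above both wild-type medians. Recovery in the segments was 47.6 ± 33.9% (SD, n = 3) and 74.7 ± 10.9% (SD, n = 2), with MT4 above both wild-type libraries and MT1 and MT2 below both (exact permutation p = 0.6, adjusted p = 0.8). The libraries ranked in recovery as in list length. On the other chromosomes the order was the same: 83.9% for MT4, 81.2% for WT bulk, 63.5% for WT transfected, 43.4% for MT1 and 23.3% for MT2. At equal list length the genotype difference in recovery in the segments was -10.4 points (exact permutation p = 0.2, the smallest possible). All mutated lines, MT4 included, then lay below both wild-type libraries. With the full lists, the spread among the mutated lines was larger than the difference between the genotypes in recovery. These p-values measure only the spread between the 5 libraries.

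No member region had a peak in all 3 mutated and in neither wild-type library. Of all regions, 0.071% are of this kind. The reverse, a peak in each wild-type library and in none of the mutated ones, was found for 5 members (2.86%), beside 2.74% of all regions and 17 of 292 (5.82%) outside the segments. The strongest of the 5 was at chr19:36449797-36451450 in segment 3, with scores of 144 in WT bulk and 133 in WT transfected, percentiles 63.7 and 59.8. The others were at chr19:58629129-58630142, chr19:55672052-55674055, chr19:58665725-58666944 and chr19:21933278-21934155, with mean percentiles of 36.8 down to 10.7. The number was 25 without MT4, 21 without WT transfected, 17 without WT bulk and 8 without MT1.

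Of the 21 windows of 1 Mb with a member peak, counted for member peaks only, 5 (23.8%) separated the genotypes, where 15.8% of the 2183 windows of the genome with a peak did. The mutated share was higher in 1, beside 6.05% of all windows, and lower in 4, beside 9.80%. A window with 1 peak cannot separate the genotypes, and member windows were not matched with the others for number of peaks. The percentages are therefore not on a like base. The window with the higher mutated share was that from 37 to 38 Mb, which contains the 4 neighbouring common regions. It held 7 peaks for WT bulk, 6 for WT transfected, 4 for MT1, 6 for MT2 and 12 for MT4. In number of peaks only MT4 exceeded both wild-type libraries, and the shares of MT1 and MT2 are taken of shorter lists. As shares these were 0.113% and 0.134% of the wild-type lists and 0.141%, 0.421% and 0.143% of the mutated lists, so that MT1 and MT4 stood just above WT transfected. The 4 others were from 9 to 10 Mb, 52 to 53 Mb, 55 to 56 Mb and 21 to 22 Mb. There the mean share was 0.0355, 0.0552, 0.00794 and 0.0903% in mutated and 0.0962, 0.112, 0.0577 and 0.112% in wild-type libraries. MT2 had no peak in 3 of these windows and 1 in the window from 21 to 22 Mb. No window can reach an exact p below 0.2.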

How the data were processed

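MeDIP-seq gave 1 peak list per library, for 5 K562 libraries. Per the submitters' processing notes, the build was hg19 and the tools included Bowtie 1.1.1 and edgeR, with no role stated. The deposited names of the peaks start with MACS. The deposited score of each peak was set by the authors' caller. Not given in the sources used here are its version and threshold, any input control and the treatment of reads that match several places. The last of these bears on duplicated genes. Scores were used only to rank peaks within a list.

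Peaks were assigned to segments by their start, in BED coordinates, and positions are printed counted from 1. Where a library had several peaks in a merged region, its best score and widest peak were taken. Density outside the segments was taken over chromosome 19 from its first base to the last peak end of any list. Medians, shares with 95% Wilson intervals, recovery and Jaccard indices were taken for each library (scipy 1.17.1, pandas 2.3.3 and numpy 2.4.6 under Python 3.11.15; figures with matplotlib 3.10.9). The library was the replicate. Segments were compared with the rest of the chromosome by an exact sign-flip permutation test over 5 libraries (32 sign combinations), and genotypes by an exact permutation test over the 10 ways to choose 2 of 5 libraries. The merging code was run on simulated data, and 200 of 200 planted regions came back with the right libraries. The planted regions lay far apart and their copies always overlapped, so neighbouring or split peaks were not tested.

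Regions named in the text are the 10 highest by mean percentile in all 5 libraries, the highest of each segment, those of 1 genotype only, the 5 widest in at least 3 libraries, the highest of each library alone, and the windows separating the genotypes. The members, rules and tests were chosen with earlier results of these data known. Alternatives were a score limit at 121.64, equal list length, leaving out each library or segment, other comparison peaks, the length without the peak-free stretch, overlap of 50%, merging across 500 bp and log2 widths. Borders moved by 0.2 Mb were added after the data were seen. Genes and promoters were not analysed here.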

Additional observations from a re-analysis of the deposited data

How the results depend on the processing

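No exact test passed 0.05 under any setting, and with 5 libraries none can. Of 178 values under alternatives, 153 kept their direction or, for counts, stayed within 1.5 times. The density ratio kept its direction in all 17 settings and the narrower width in 16 of 17; against the other chromosomes the width difference was 13.4 bp. The percentile difference was -5.28 points at equal list length, 3.06 at the score limit of 121.64 and -4.49 against the other chromosomes. The difference in sharing was -5.25 points at equal list length. The difference in recovery was -1.33 points at the score limit of 121.64, -13.4 at equal list length, -0.594 against the other chromosomes and from -0.712 to 7.22 without one library. The genotype difference in list share was 0.0351 points at equal list length. That in the share of chromosome 19 peaks was -0.728 points at the score limit and ranged from -0.950 (without MT2) to 6.96 (without MT1). Regions of wild type only numbered 3 at the score limit, 2 at equal list length, 2 without segment 5 and 5 to 25 without one library. Regions of the mutated lines only numbered 0 to 1 without one library. Common regions numbered 3, 2 and 7 at the score limit, at equal list length and without segment 3, and 14 to 30 without one library. Fewer libraries or peaks to satisfy move such numbers by construction. No paired analysis was possible because nothing in the labels ties a mutated line to either wild-type culture.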
